A study of Mus musculus with 14 samples.

Results

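The proteins of the cytosolic ribosome were followed at the level of their transcripts. Members were probe sets annotated with a single gene symbol of the form Rpl or Rps, a number and at most 1 letter, or with Rplp0, Rplp1, Rplp2 or Rpsa. Mitochondrial ribosomal proteins, S6 kinases and pseudogenes were left out. Of the 45101 probe sets on the array, 94 met this rule, and they stood for 42 of the 18193 genes with a probe set of their own. Of these genes, 22 encode proteins of the large (60S) subunit and 20 of the small (40S) subunit. A further 110 probe sets name a ribosomal protein gene together with another gene. They were not members, and 27 ribosomal protein genes, among them Rpl5, Rpl10 and Rplp1, were seen only there. The 42 genes are therefore a part of the ribosome and not all of it.

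RNA came from whole lungs of mice on a C57BL/6 background, aged 20 weeks, in 3 groups with 1 array per sample. Mice lacking CD151 (CD151KO) gave 5 arrays, mice lacking CD9 (CD9KO) gave 5, and wild type mice gave 4, numbered 1, 3, 4 and 5. CD151 and CD9 are tetraspanins, membrane proteins that gather integrins and other partners into complexes. The sources used here do not say how the knockouts were made, the sex of the mice, or whether each sample is a separate animal. The p-values therefore cover the spread between samples of a group, and part or all of that spread may be technical.

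A ribosome joins a small subunit, which reads the messenger RNA, to a large subunit, which forms the peptide bond. The ribosomal proteins are made in near equal numbers, and an unassembled one is quickly degraded. Their messengers begin with a C followed by an unbroken stretch of pyrimidines, the 5′ terminal oligopyrimidine (TOP), through which mTORC1 and the RNA-binding protein Larp1 control their translation together. These mRNAs are among the most abundant in any cell, and lymphocytes and dividing cells are known to be rich in them. A change in the mRNA level does not by itself show a change in the number of ribosomes.

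The knocked-out genes followed their labels. Cd151 measured 1058 ± 17.7 in CD151KO, 4987 ± 149 in CD9KO and 5330 ± 372 in wild type lungs (SD, n = 5, 5 and 4). Cd9 measured 8232 ± 265 in CD151KO, 667 ± 52.3 in CD9KO and 8096 ± 69.4 in wild type lungs. Sftpc, the surfactant protein gene that marks alveolar type 2 cells, was bright on every array at 28308 to 29212, which fits the labelled tissue. Array medians lay between 84.1 and 86.2. On the first principal component of all genes, which held 37.3% of the variance, CD151KO number 1 (-17.3) and wild type number 1 (-18.6) stood apart from the remaining 12 arrays (-7.99 to 13.3). The counts of members and of all genes that passed are given with and without these arrays. The gene lists, the cell markers and the counts by brightness and subunit are given only with them.

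The start sites of 37 of the 42 genes were found in RefSeq's promoter table (build GRCm38.p6), with 43 start sites in all. The stretches printed here run 60 bases before to 30 bases after the start of the 3 genes that passed the test in both comparisons with CD9KO (Rpl11, Rps26, Rps18), of the member with the least spread between arrays (Rpl38), and of a member without a long pyrimidine run (Rps28). Capitals mark the longest unbroken run of C and T with at least 1 base within 25 bases of the start.
Rpl11, chr4:136053364-136053453, minus strand: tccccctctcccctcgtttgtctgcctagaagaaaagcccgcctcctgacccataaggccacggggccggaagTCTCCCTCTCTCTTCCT
Rps26, chr10:128626477-128626566, minus strand: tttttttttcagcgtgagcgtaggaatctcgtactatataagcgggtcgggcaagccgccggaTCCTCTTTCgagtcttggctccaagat
Rps18, chr17:33955636-33955725, minus strand: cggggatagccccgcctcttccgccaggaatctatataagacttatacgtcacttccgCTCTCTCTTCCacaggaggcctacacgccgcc
Rpl38, chr11:114668520-114668609, plus strand: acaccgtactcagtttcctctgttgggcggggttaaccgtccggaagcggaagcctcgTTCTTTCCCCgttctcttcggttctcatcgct
Rps28, chr17:33824533-33824622, minus strand: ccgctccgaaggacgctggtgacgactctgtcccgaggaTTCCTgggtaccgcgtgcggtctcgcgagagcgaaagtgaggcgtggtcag
The run measured 17 bases in Rpl11, 9 in Rps26, 11 in Rps18 and 10 in Rpl38, and in Rps28 only 5. In Rps18 and Rpl38 it spans the annotated start, and in Rpl11 and Rps26 it lies downstream of it. A run of at least 8 bases of C and T within 25 bases of the start was present at 23 of the 43 member start sites (53.5%), against 24.1% of all 32851 promoters in the table and 23.6% of those of protein-coding genes. The distance of 25 bases was set after the sequences had been seen. On either strand of the 300-base window, 250 bases before to 50 after the start, CCGGAAG, the core read by ETS factors such as GABP, was present in 41.9% of member promoters, 8.86% of all promoters and 11.6% of protein-coding ones. GGGCGG, the core read by Sp1, was present in 53.5% of member promoters, 35.7% of all promoters and 46.2% of protein-coding ones. TATAAA was present in 11.6% of member promoters, 13.6% of all promoters and 12.6% of protein-coding ones. Overlaps between motifs were not removed, and a match in these windows does not show a site in use.

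Of the 42 genes, 41 passed the filter on low signal, and Rps16, whose lone probe set measured 7.85 to 12.1, did not. The tested members fell into a bright set and a dim set. The probe sets of 33 members averaged 6379 to 19001 signal units, those of 8 members averaged 108 to 863, and none lay between. The dim ones were Rpl12, Rpl14, Rpl27a, Rpl37, Rpl39, Rps6, Rps25 and Rps27. Signals of different probe sets do not compare the levels of the genes. Differences between groups are given as log2(signal + 16), with limma's adjusted p over all 12985 genes tested, and an adjusted p under 0.05 was counted as passing.

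**Figure D1:**
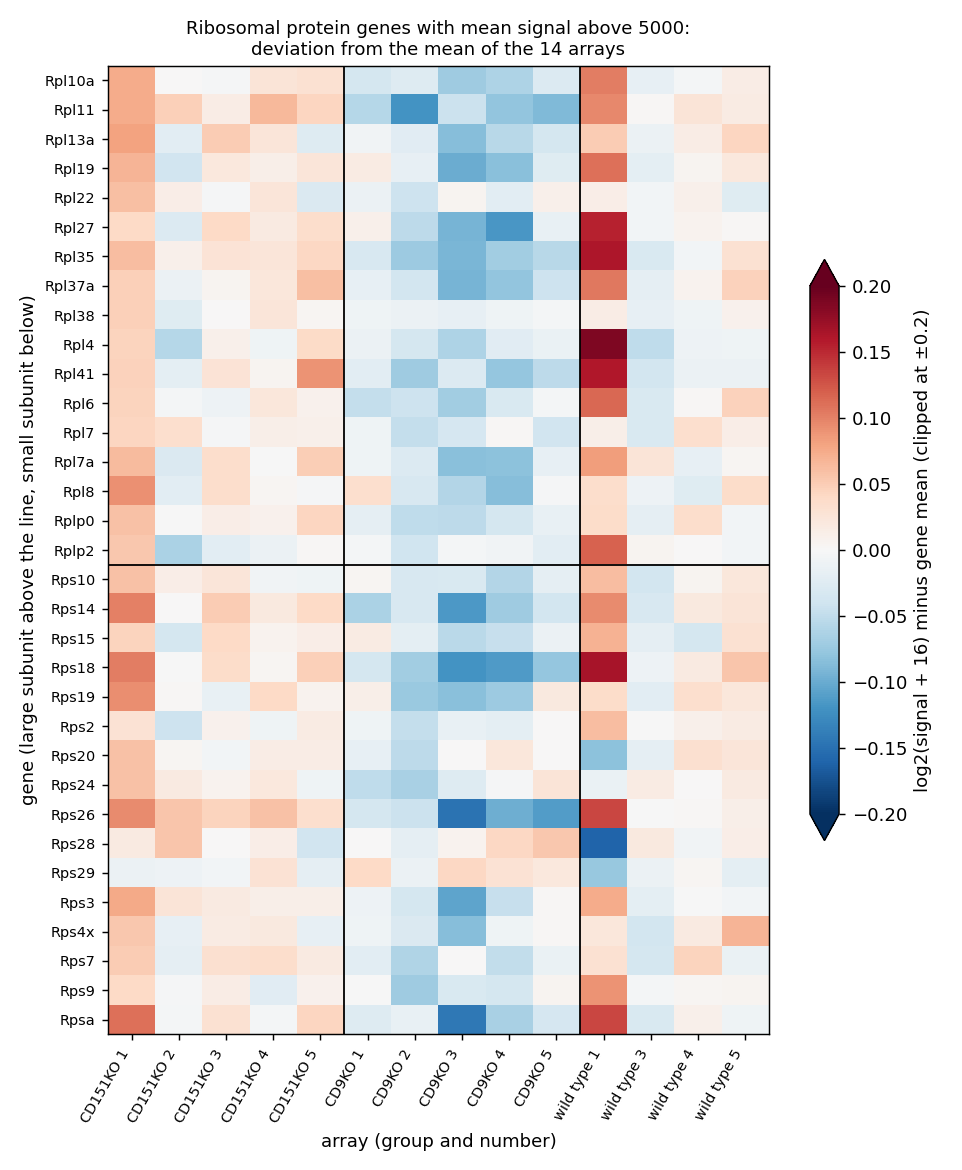
Each row is 1 of the 33 ribosomal protein genes with mean signal above 5000. Each column is 1 array, in the order CD151KO, CD9KO and wild type. Colour gives the log2(signal + 16) of a gene minus its mean over the 14 arrays. The CD9KO columns are mostly below the mean. Over all 41 tested members, dim ones not drawn included, the number 1 arrays of CD151KO and of wild type hold the highest value of 32.

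Between CD151KO and wild type lungs, none of the 41 members passed the test with limma, and none had an unadjusted p under 0.05, against 0.778% of all genes past the adjusted threshold (0.454% higher and 0.323% lower) and 11.1% past the unadjusted one. The members' differences ran from a log2 of -0.11 for Rps25 to 0.13 for Rpl37. Their median was 0.0089, against 0.0079 over all genes tested, with 27 members above 0 and 14 below. For no member were the values of the groups apart, which was so for 2.85% of all genes as higher and 1.69% as lower.

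In CD9KO lungs, most ribosomal protein transcripts had slightly lower means than in wild type lungs, and 3 of the 41 fell past the threshold. Rpl11, a protein of the 5S particle that binds Mdm2, Rps18, a protein of the head of the small subunit, and Rps26, which lines the path of the mRNA as it leaves, were the 3. Rpl11 fell by 7.52%, Rps18 fell by 9.24% and Rps26 fell by 8.24%. No member rose. The share that passed, 3 of 41, stands beside 5.46% of all genes that passed in either direction, 2.6% as lower and 2.86% as higher. Of the 41 members, 35 lay below 0, with a median log2 of -0.05 (-3.46%), against a median of 0.0037 over all genes. An unadjusted p under 0.05 was found for 13 members that were lower and 2, Rps29 and Rpl12, that were higher, beside 12.1% and 13.3% of all genes and 25.4% in either direction. Every CD9KO value lay below every wild type value for 5 members and above it for 1, beside 5.19% and 6.64% of all genes. The wild type arrays are the same as in the comparison with CD151KO. In whole lung, fewer cells of a type and less of the RNA per cell cannot be told apart.

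Rpl11 had signals of 8404, 8249.8, 8057, 8342 and 8223 on the CD151KO arrays, 7672, 7338, 7741, 7551 and 7504 on the CD9KO arrays, and 8527, 7989.8, 8124 and 8073 on the wild type arrays. All 5 CD9KO values lay below every other array, and the CD151KO and wild type values overlapped. The means were 8255 ± 132 in CD151KO lungs, 7561 ± 156 in CD9KO lungs and 8179 ± 239 in wild type lungs (SD, n = 5, 5 and 4). Rpl11 was lower in CD9KO than in wild type by a log2 of -0.11 (SE 0.03, limma adjusted p = 0.0277) and higher in CD151KO than in CD9KO by 0.13 (SE 0.02, adjusted p = 0.00743).

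Rps26 had signals of 8622, 8386, 8328, 8408 and 8262 on the CD151KO arrays, 7876, 7830.3, 7288, 7540.5 and 7466 on the CD9KO arrays, and 8852, 8070.3, 8086 and 8139.7 on the wild type arrays. Again the 5 CD9KO values lay below the other 9, and wild type number 1 was the highest array. The means were 8401 ± 136 in CD151KO lungs, 7600.2 ± 249 in CD9KO lungs and 8287 ± 378 in wild type lungs. Rps26, like Rps19, is one of the genes mutated in human Diamond-Blackfan anaemia. Its log2 difference was -0.12 in CD9KO against wild type (SE 0.03, limma adjusted p = 0.0419) and 0.14 in CD151KO against CD9KO (SE 0.03, adjusted p = 0.0105).

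Rps18 had signals of 10660.4, 9917, 10185, 9959.5 and 10261 on the CD151KO arrays, 9687, 9459.7, 9133, 9175 and 9409.7 on the CD9KO arrays, and 11130.1, 9857, 10048 and 10313 on the wild type arrays. The CD9KO values again did not reach those of the other groups, by a margin of less than 200 units for CD9KO number 1. The means were 10197 ± 297 in CD151KO lungs, 9373 ± 226 in CD9KO lungs and 10337 ± 561 in wild type lungs. The log2 difference was -0.14 in CD9KO against wild type (SE 0.04, limma adjusted p = 0.0361) and 0.12 in CD151KO against CD9KO (SE 0.03, adjusted p = 0.0324). Unlike Rpl11 and Rps26, each measured by a lone probe set, Rps18 had 6, and they did not move alike, as described further on. When each gene was taken as the average over its probe sets, the log2 difference of Rps18 was -0.05 in CD9KO against wild type (limma adjusted p = 0.273) and 0.03 in CD151KO against CD9KO (adjusted p = 0.475), neither past the threshold. That average takes in all 6 probe sets, including those below the filter on low signal.

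Rps14 had signals of 12949, 12094, 12521, 12242 and 12416 on the CD151KO arrays, 11559.8, 11816, 11159, 11496 and 11770.4 on the CD9KO arrays, and 12899, 11809, 12248 and 12294 on the wild type arrays. This protein of the platform of the small subunit is one whose loss marks a human bone marrow disorder, the 5q- syndrome. All CD151KO values lay above all CD9KO values, while wild type number 3 fell just below CD9KO number 2. The difference passed the test in CD151KO against CD9KO (log2 0.11, SE 0.03, limma adjusted p = 0.0274) and did not in CD9KO against wild type (log2 -0.09, SE 0.03, adjusted p = 0.0764). Both comparisons use the same CD9KO arrays.

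**Figure D2:**
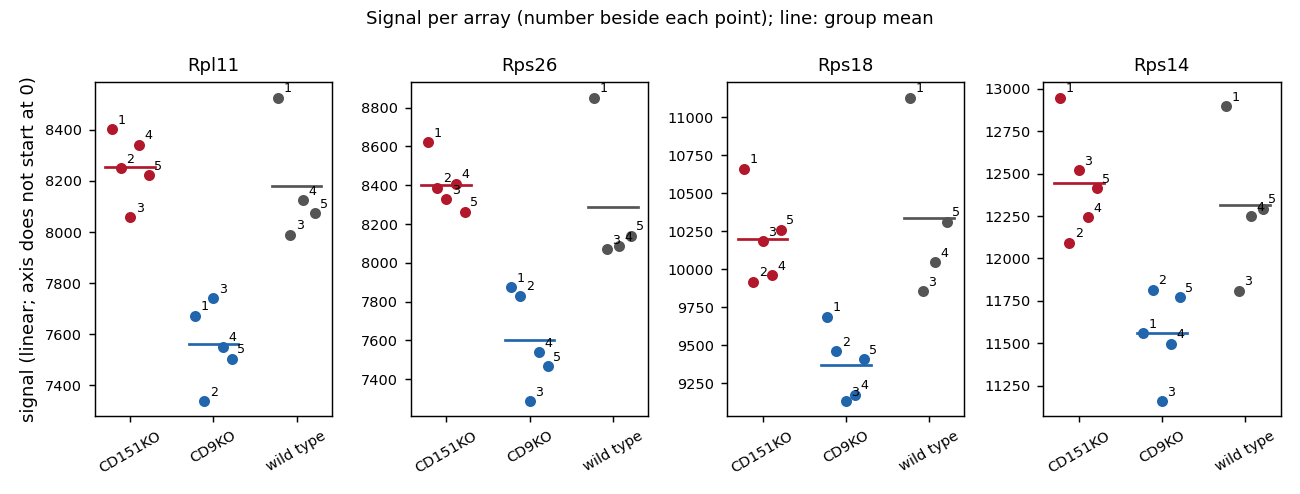
Signal of Rpl11, Rps26, Rps18 and Rps14, 1 panel per gene, with 1 point per array and a line at the group mean. Groups are in the order CD151KO, CD9KO and wild type. In the Rpl11, Rps26 and Rps18 panels no CD9KO point reaches a point of the other groups, and in the Rps14 panel wild type number 3 meets the CD9KO range.

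Between the knockouts, most ribosomal protein transcripts had slightly higher means in CD151KO than in CD9KO lungs. Of the 41 members, 4 were higher in CD151KO than in CD9KO past the threshold (Rpl11, Rps26, Rps14 and Rps18) and none was lower. Over all genes 10.1% passed, 6.01% as higher and 4.14% as lower. The median log2 of the members was 0.05 (3.58%), against 0.0016 over all genes, with 36 above 0. An unadjusted p under 0.05 was found for 18 members that were higher, beside 15.2% of all genes, and for 1, Rpl12, that was lower, beside 12.5% of all genes. For 12 members every CD151KO value lay above every CD9KO value, which was so for 6.55% of all genes, and for none was the reverse true, beside 4.06% of all genes. This comparison shares the CD9KO arrays with the one before it, and the comparisons are not independent of each other.

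Bright and dim probe sets were counted apart. In CD9KO against wild type, 30 of the 33 members with signals above 5000 lay below 0 and their median log2 was -0.05. The 254 other genes with signals above 5000 had a median of 0.0002, with 126 below 0, and 7 of them fell and 8 rose past the threshold. Of the 8 dim members 5 lay below 0, with a median of -0.03 and none past the threshold. In CD151KO against CD9KO, 31 of the 33 lay above 0. Both subunits showed the same direction. In large-subunit members 19 of 22 were below 0 in CD9KO against wild type, with a median of -0.06, and in small-subunit members 16 of 19, with a median of -0.04.

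**Figure D3:**
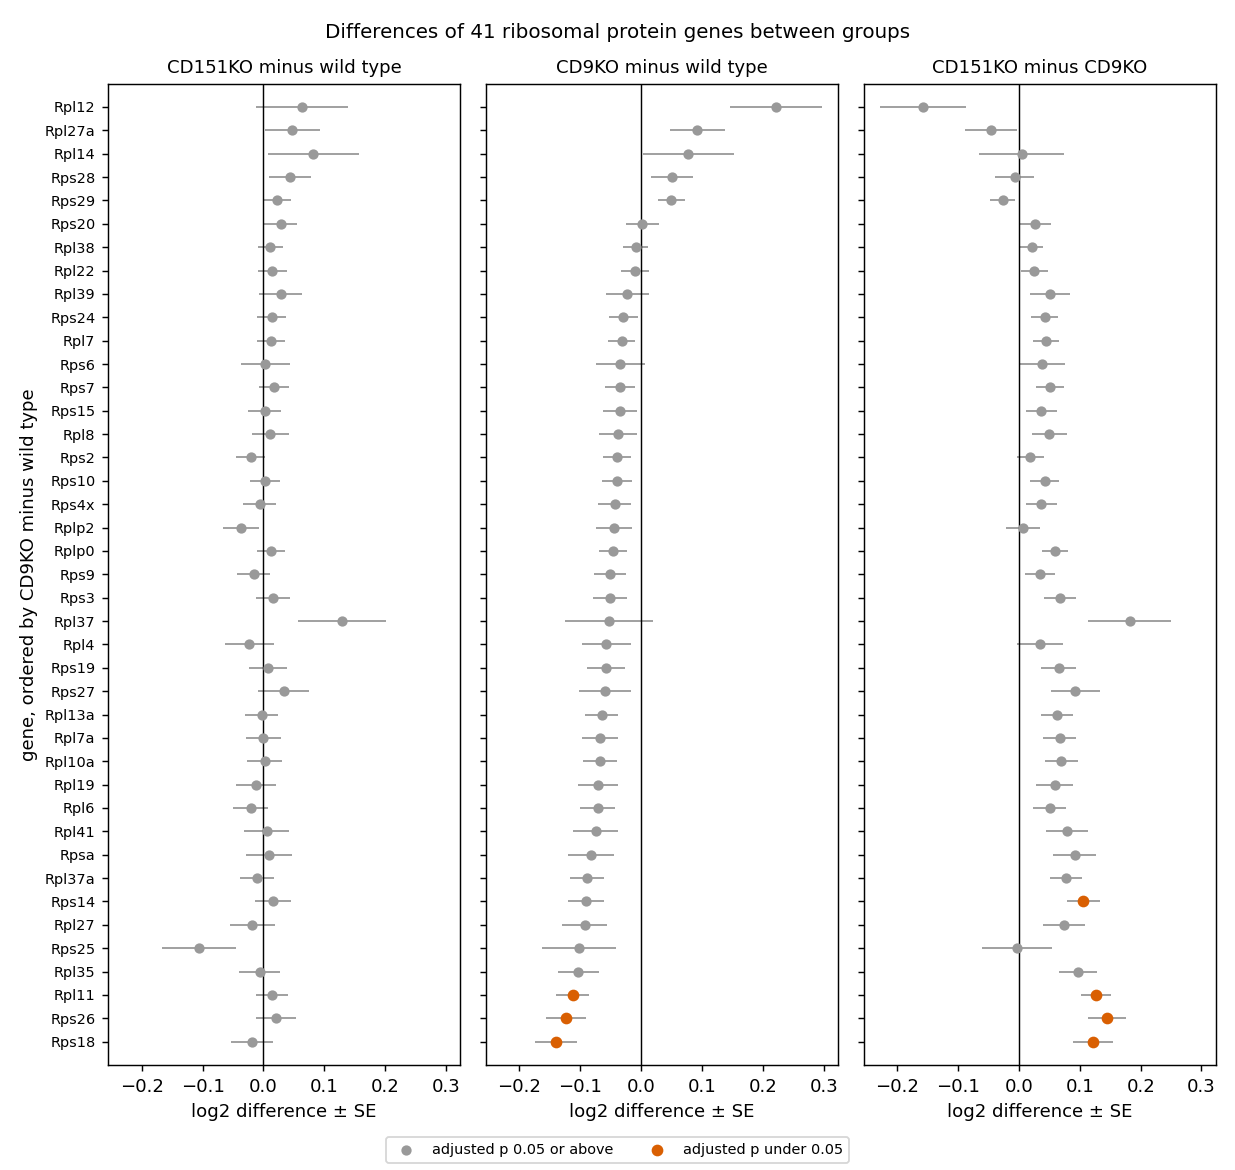
Log2 difference ± SE of each of the 41 tested genes in the 3 comparisons, with orange points for an adjusted p under 0.05 and grey points otherwise. In CD151KO minus wild type the points lie on both sides of 0, in CD9KO minus wild type 35 lie below 0, and in CD151KO minus CD9KO 36 lie above 0.

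The bright members varied little between arrays of a group. The median residual SD of the tested members was 0.039 on the log2 scale. It was 0.0374 for members above 5000 and 0.0763 for the dim members. For the other genes above 5000 it was 0.0603, and for all genes 0.0882. Rpl38 had the lowest, 0.018, and Rpl12 the highest, 0.118.

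The P stalk recruits the elongation factors to the large subunit. It is built on Rplp0, which carries Rplp1 and Rplp2. Rplp0 had signals of 11999.8, 11509, 11619.7, 11583 and 11867 on the CD151KO arrays, 11372, 11115, 11108, 11239 and 11399 on the CD9KO arrays, and 11809, 11367, 11799.9 and 11474 on the wild type arrays. All CD151KO values lay above all CD9KO values, and wild type overlapped both (CD151KO against CD9KO log2 0.06, limma adjusted p = 0.0926, not past the threshold). Rplp2 had signals of 14636, 13489, 13892, 13982 and 14123 on the CD151KO arrays, 14061, 13709, 14057, 14031 and 13888 on the CD9KO arrays, and 15296, 14144, 14099 and 14044 on the wild type arrays. Here the groups overlapped and wild type number 1 stood above the rest. Rpl12 sits at the base of the stalk and was one of the 6 members above 0 in CD9KO against wild type. Rpl12 had signals of 131, 166, 163, 159 and 165 on the CD151KO arrays, 162, 174, 165, 179.7 and 201 on the CD9KO arrays, and 133, 153, 161 and 149 on the wild type arrays. Every CD9KO value lay above every wild type value, the highest of which was 161 on number 4, and the 2 number 1 arrays outside CD9KO were the lowest. The log2 difference in CD9KO against wild type was 0.22 (SE 0.08, limma adjusted p = 0.0838), and the difference did not pass.

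Rpl10a is part of the stalk at which used tRNA leaves. Its signal ranged 7632 to 8050.1 in CD151KO, 7282 to 7509.8 in CD9KO and 7557 to 8208 in wild type lungs, so that the CD9KO values lay below both other groups (CD9KO against wild type log2 -0.07, limma adjusted p = 0.148). Rpl35 lies at the mouth of the exit tunnel of the nascent chain. Rpl35 had signals of 10182, 9819, 9942, 9912 and 10041 on the CD151KO arrays, 9537, 9275, 9149, 9297 and 9381 on the CD9KO arrays, and 10916, 9544, 9716 and 9957 on the wild type arrays. The CD9KO arrays were again the lowest 5, although CD9KO number 1 and wild type number 3 were only a few units apart (log2 -0.10, limma adjusted p = 0.0751). Rpl4 reaches into the same tunnel, and Rpl39 lines it. Rpl4 had signals of 11719, 10915, 11447, 11296 and 11667 on the CD151KO arrays, 11273, 11088, 10879, 11188 and 11261 on the CD9KO arrays, and 12926, 10966, 11279 and 11288 on the wild type arrays. Wild type number 1 was far above the other 13 arrays, which overlapped. Rpl39 had signals of 119, 114, 114, 114 and 111 on the CD151KO arrays, 109.9, 111, 109, 111 and 109 on the CD9KO arrays, and 113, 113, 111 and 111 on the wild type arrays. The span of these values was narrow, and the groups overlapped.

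Rpl37 and Rpl37a are zinc-binding proteins of the large subunit. Rpl37a had signals of 16579.6, 15915, 16104, 16298 and 16722 on the CD151KO arrays, 15864, 15645, 15047, 15198 and 15595 on the CD9KO arrays, and 17269, 15854, 16128 and 16565 on the wild type arrays. CD151KO lay above CD9KO throughout (log2 0.08, limma adjusted p = 0.074). Rpl37 had signals of 899, 847, 886, 1012 and 981 on the CD151KO arrays, 879, 731, 897, 819 and 745 on the CD9KO arrays, and 784, 791, 910.0 and 894 on the wild type arrays. CD151KO numbers 4 and 5 were the highest arrays, but the groups overlapped (log2 0.18 in CD151KO against CD9KO, SE 0.07, limma adjusted p = 0.099).

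Rpl22 is needed for T cell development in mice, and loss of Rpl38 in the Tail-short mouse disturbs translation of Hox mRNAs. Rpl22 had signals of 10695, 10362, 10248, 10435 and 10059 on the CD151KO arrays, 10183, 9969.9, 10302, 10110.5 and 10332 on the CD9KO arrays, and 10356, 10226, 10333 and 10092 on the wild type arrays. Rpl38 had signals of 13758, 13095, 13322, 13534 and 13342 on the CD151KO arrays, 13224, 13200.1, 13153, 13237 and 13272 on the CD9KO arrays, and 13440.1, 13158, 13227 and 13387 on the wild type arrays. Neither gene separated any pair of groups. Rpl38 was the steadiest member, and its log2 difference in CD9KO against wild type was -0.0093.

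Of the remaining large-subunit proteins, Rpl6, Rpl14 and Rpl27a were named by the rule for small p or low signal. Rpl6 had signals of 8954, 8654, 8619.6, 8815 and 8732 on the CD151KO arrays, 8402, 8434, 8269.5, 8501 and 8656 on the CD9KO arrays, and 9399.6, 8501, 8692 and 8962 on the wild type arrays. Most CD9KO values were below the wild type ones, with an overlap at wild type number 3 (log2 -0.07, limma adjusted p = 0.137). Rpl14 had signals of 103, 101, 104, 118 and 127 on the CD151KO arrays, 106, 98.1, 113, 119.6 and 114 on the CD9KO arrays, and 94.9, 107, 117 and 95.2 on the wild type arrays. Rpl27a had signals of 327, 329, 309, 325 and 333 on the CD151KO arrays, 345, 319.9, 322, 356 and 336 on the CD9KO arrays, and 288, 319.7, 323 and 325 on the wild type arrays. For both of these dim probe sets the groups overlapped, and in each wild type number 1 was the lowest array.

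None of the other large-subunit members passed. Rpl27 ranged 6255 to 6555 in CD151KO, 5879.6 to 6421 in CD9KO and 6349 to 7096 in wild type lungs, with wild type number 1 far above the rest. Rpl41, one of the shortest proteins known, ranged 14447 to 15597 in CD151KO, 13888 to 14434 in CD9KO and 14276 to 16369 in wild type lungs, and CD151KO and CD9KO did not overlap. Rpl13a, which in human cells can leave the ribosome to silence inflammatory mRNAs, ranged 14112 to 15192 in CD151KO, 13554 to 14304 in CD9KO and 14254 to 14892 in wild type lungs. Rpl7, Rpl7a, Rpl8 and Rpl19 overlapped in every comparison, with log2 differences in CD9KO against wild type of -0.03, -0.07, -0.04 and -0.07.

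On the small subunit, Rps2, Rps3 and Rps9 surround the channel through which mRNA enters. Rps3 had signals of 11744, 11336, 11282, 11234 and 11228 on the CD151KO arrays, 11059.9, 10874, 10351, 10792 and 11162 on the CD9KO arrays, and 11733, 10992, 11137 and 11097 on the wild type arrays. The CD151KO values lay above the CD9KO values throughout, and wild type overlapped both (CD151KO against CD9KO log2 0.07, limma adjusted p = 0.116). Rps2 had signals of 9729, 9267, 9591, 9479 and 9653 on the CD151KO arrays, 9487, 9229.7, 9436, 9415 and 9540.4 on the CD9KO arrays, and 9952, 9531, 9609.7 and 9648 on the wild type arrays. Rps9 had signals of 9694, 9415, 9529, 9285 and 9492 on the CD151KO arrays, 9424, 8973, 9228, 9200.2 and 9463 on the CD9KO arrays, and 10040.5, 9409, 9456 and 9462 on the wild type arrays. For Rps2 and Rps9 the groups overlapped, and wild type number 1 was the highest array.

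Rpsa, also known as the laminin receptor precursor, binds laminin outside the ribosome, as do the integrins that CD151 binds. Rpsa had signals of 9279, 8571, 8779, 8575 and 8857 on the CD151KO arrays, 8439, 8508, 7782, 8216 and 8401 on the CD9KO arrays, and 9427, 8418, 8658 and 8547 on the wild type arrays. CD151KO lay above CD9KO throughout, and wild type number 3 was inside the CD9KO range (CD9KO against wild type log2 -0.08, limma adjusted p = 0.186). In CD151KO against wild type the log2 difference of Rpsa was 0.01 (adjusted p = 0.957).

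Rps6 is the substrate of the S6 kinases downstream of mTORC1, and Rps19 is the gene most often mutated in Diamond-Blackfan anaemia. Rps6 had signals of 807, 758, 766, 846 and 824 on the CD151KO arrays, 784, 786, 766, 752 and 807 on the CD9KO arrays, and 805, 769.7, 789 and 828 on the wild type arrays. No group stood apart in this gene. Rps19 had signals of 10205, 9589, 9475, 9834 and 9617 on the CD151KO arrays, 9643, 9091, 9033, 9098 and 9705 on the CD9KO arrays, and 9820.5, 9427, 9795 and 9724 on the wild type arrays. CD9KO numbers 2, 3 and 4 were the lowest arrays, while numbers 1 and 5 lay among the wild type values (log2 -0.06, limma adjusted p = 0.25).

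Of the small-subunit genes 3 lay above 0 in CD9KO against wild type, namely Rps20, Rps28 and Rps29. Rps29 had the highest signal of all members. Rps29 had signals of 18849.5, 18867, 18931, 19386 and 18757 on the CD151KO arrays, 19528, 18847, 19557, 19373 and 19273 on the CD9KO arrays, and 18022, 18845, 19052 and 18735 on the wild type arrays. Of the 5 highest values 4 were on CD9KO arrays, and wild type number 1 was the lowest (log2 0.05, SE 0.02, limma adjusted p = 0.176, not past the threshold). Rps28 had signals of 14968, 15351, 14785, 14919 and 14382 on the CD151KO arrays, 14792, 14598, 14841, 15209 and 15335 on the CD9KO arrays, and 13221, 14979, 14698 and 14921 on the wild type arrays. Rps20 had signals of 12054, 11606, 11534, 11702 and 11703 on the CD151KO arrays, 11452, 11160.2, 11585, 11754 and 11583 on the CD9KO arrays, and 10936, 11433, 11838 and 11779 on the wild type arrays. In Rps28 and in Rps20, wild type number 1 was again the lowest array and the remaining values overlapped. The other probe sets of Rps28 and Rps29 lay below 0, as given further on.

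Rps25, which some internal ribosome entry sites need, and Rps27 were dim. Rps25 had signals of 305, 348, 311, 349 and 331 on the CD151KO arrays, 323, 352, 332, 325 and 315 on the CD9KO arrays, and 409, 343, 342 and 330.4 on the wild type arrays. Wild type number 1 stood above all others, and the remaining arrays overlapped. Rps27 had signals of 152, 152, 151, 152 and 154 on the CD151KO arrays, 148, 139.8, 138, 136 and 147 on the CD9KO arrays, and 152, 138, 156 and 148 on the wild type arrays. All CD151KO values lay above all CD9KO values by a few units (log2 0.09, limma adjusted p = 0.144). Rps4x, Rps7, Rps10, Rps15 and Rps24 overlapped in every comparison, with log2 differences in CD9KO against wild type of -0.04, -0.04, -0.04, -0.04 and -0.03.

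The level of these genes differed between arrays of a group as well as between groups. The mean log2 of the 33 bright members was 13.488, 13.423, 13.445, 13.444 and 13.446 on the CD151KO arrays, 13.416, 13.385, 13.371, 13.383 and 13.410 on the CD9KO arrays, and 13.495, 13.413, 13.435 and 13.443 on the wild type arrays. All CD9KO arrays lay below all CD151KO arrays, and wild type number 3 lay just below CD9KO number 1. The number 1 arrays of CD151KO and wild type were the highest. Of the 41 members, 19 had their highest value on wild type number 1 and 13 on CD151KO number 1, together 78.0%, against 29.8% of all genes. The lowest value was on a CD9KO array for 32 members, 18 of them on number 3, against 38.3% of all genes.

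**Figure D4:**
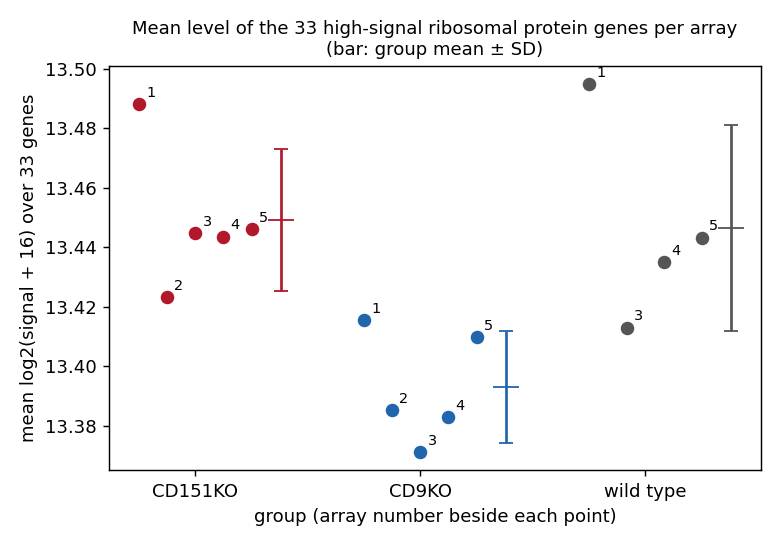
Mean log2(signal + 16) of the 33 ribosomal protein genes with signals above 5000, 1 point per array with its number, and the group mean ± SD. CD9KO arrays lie at 13.371 to 13.416, CD151KO arrays at 13.423 to 13.488 and wild type arrays at 13.413 to 13.495, with the number 1 arrays of CD151KO and wild type on top.

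Without both of these number 1 arrays, no member passed in CD9KO against wild type and the median log2 was -0.03, while 404 of all genes (3.11%) passed. In CD151KO against CD9KO 5 members passed without them, with a median of 0.04, beside 1228 of all genes (9.46%). With those arrays left out 36 of 41 members lay below 0 in CD9KO against wild type, 7 of the 41 (17.1%) had an unadjusted p under 0.05 in limma, beside 21.3% of all genes, and 36 lay above 0 in CD151KO against CD9KO. Leaving out a single array also ended all 3 calls against wild type when it was wild type number 1, CD9KO number 4 or CD9KO number 5, with 7, 8 and 14 members (17.1%, 19.5% and 34.1%) then at an unadjusted p under 0.05, beside 19.8%, 21.7% and 22.1% of all genes. Of all genes 2.04%, 1.6% and 1.43% passed without these arrays, in that order. The first principal component ran over -17.3 to 2.50 on the CD151KO arrays, 7.24 to 13.3 on the CD9KO arrays and -18.6 to 1.60 on the wild type arrays. By exact two-sided permutation tests p was 0.00794 for CD151KO against CD9KO and 0.0159 for CD9KO against wild type, the smallest p-values that these tests can give, and both were 0.0595 after adjustment over 15 tests. The number 1 arrays of CD151KO and wild type had the lowest scores and the highest mean log2 of the bright members. The CD9KO arrays had the highest scores. Among the other arrays of CD151KO and wild type, CD151KO number 2 (-7.99) and wild type number 3 (-4.99) had the lowest levels (13.423 and 13.413). The part of the component in the result was not tested. The 18S rRNA control probe sets averaged 1082 ± 170 in CD151KO, 894 ± 105 in CD9KO and 998 ± 246 in wild type lungs, with no difference past the threshold. The BioB spike-in control averaged 387 ± 24.5 in CD151KO, 412 ± 39.97 in CD9KO and 332 ± 16.4 in wild type lungs (exact permutation p = 0.0159 for each knockout against wild type, the smallest these tests can give, and 0.0595 after adjustment).

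Several genes were measured more than once. Of the 94 member probe sets 82 passed the filter on low signal, and in CD9KO against wild type 68 of them lay below 0, with a median log2 of -0.05 and 6 lower past the threshold in a fit of every probe set, where 1555 of all 22951 probe sets (6.78%) passed in either direction. In CD151KO against CD9KO 67 lay above 0, and 8 were higher past the threshold, beside 1767 of all probe sets (7.7%) in either direction. The 102 bright enough probe sets that name a ribosomal protein gene and a further gene ran alike, with 81 below 0 and a median of -0.04 in CD9KO against wild type, and with 88 above 0 and a median of 0.04 in CD151KO against CD9KO. Ribosomal protein genes have many processed pseudogenes, and 38 of the 94 probe sets carry the suffix that Affymetrix gives to sets with probes shared between transcripts. The signal of a gene and of its copies cannot be told apart there.

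Of the 18 genes with at least 2 probe sets above the filter, 9 had all of them below 0 in CD9KO against wild type, 1 (Rps20) had all above, and 8 had them on both sides. The probe sets of Rps18 gave log2 differences of -0.14, -0.10, 0.03 and -0.07, and the last of these was dim. Those of Rps14 gave -0.09 and -0.0048. In Rps28 they gave 0.05, -0.06 and -0.08, and in Rps29 0.05, -0.02 and -0.02. The probe set with the highest signal, which stands for the gene, was thus the highest of the 3 in both Rps28 and Rps29.

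**Figure D5:**
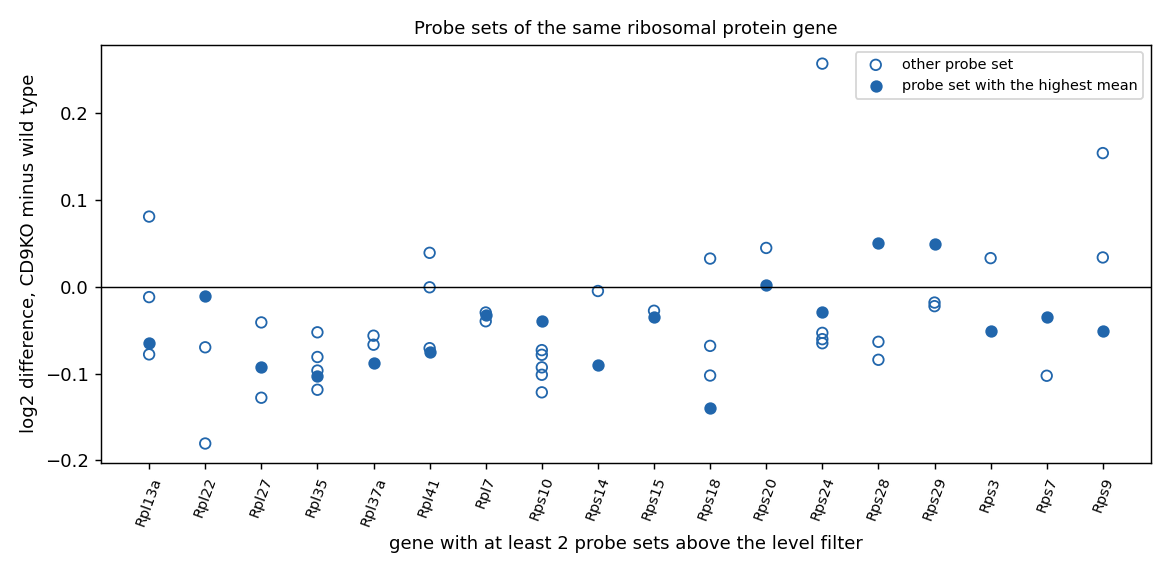
Log2 difference, CD9KO minus wild type, of every probe set above the signal filter for the 18 ribosomal protein genes with at least 2 such probe sets. Filled points mark the probe set with the highest mean signal, and 8 genes have points on both sides of 0.

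Other genes of the translation machinery were counted from lists by role. The list counts below stand beside the shares of all genes past the threshold. These were 2.86% higher and 2.6% lower in CD9KO against wild type, and 6.01% and 4.14% in CD151KO against CD9KO. In CD151KO against wild type they were 0.454% and 0.323%. No list was tested as a set. Fau, which encodes the small-subunit protein eS30 fused to a ubiquitin-like protein, measured 10119.6 ± 410.2 in CD151KO, 9399 ± 247 in CD9KO and 10044 ± 334 in wild type lungs, and was higher in CD151KO than in CD9KO (log2 0.11, SE 0.03, limma adjusted p = 0.0466). Of 17 tested mRNAs outside the ribosome that carry a TOP, 2 fell and none rose in CD9KO against wild type, with a median log2 of -0.09 and 13 below 0. They were Eif3e (log2 -0.18, adjusted p = 0.0336) and Eif3m (-0.18, 0.0276), subunits of the initiation factor that binds the small subunit. In CD151KO against CD9KO 3 of the 17 rose, namely Eif3k, Eif3m and Naca, which shields the nascent chain at the exit tunnel. Eif3m measured 1191 ± 59.96 in CD151KO, 1052 ± 36.3 in CD9KO and 1192 ± 35.7 in wild type lungs, and Naca 7871 ± 83.8 in CD151KO, 7331 ± 168 in CD9KO and 7840.4 ± 289 in wild type lungs. In CD151KO against wild type none of the 17 passed.

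Genes that act upstream of ribosome production were counted likewise. Of 19 genes of the mTORC1, Myc and S6 kinase list, 2 rose in CD9KO against wild type and none fell, with 17 above 0 and a median log2 of 0.06. Eif4ebp1, the repressor of cap-dependent translation that mTORC1 phosphorylates, measured 699 ± 76.3 in CD151KO, 801 ± 33.8 in CD9KO and 656 ± 24.3 in wild type lungs (log2 0.28, limma adjusted p = 0.0276). Mycl, a Myc-family transcription factor, measured 173 ± 20.3 in CD151KO, 203 ± 18.1 in CD9KO and 163 ± 9.83 in wild type lungs (log2 0.29, adjusted p = 0.0457). Of 24 factors of large-subunit assembly 1, Nsa2, fell in CD9KO (log2 -0.25, adjusted p = 0.0315) and 17 lay above 0. Gnl3 was lower in CD151KO than in CD9KO (log2 -0.20, adjusted p = 0.0449). Of 31 factors of small-subunit assembly none passed in CD9KO against wild type, and Riok2 and Wdr36 were lower in CD151KO than in CD9KO (log2 -0.35 and -0.17, adjusted p = 0.0221 and 0.0487). Among 15 genes of RNA polymerase I, which transcribes the ribosomal RNA, none passed in any comparison.

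Initiation factors without a TOP and elongation factors mostly did not pass. Eif5 rose in CD9KO against wild type (log2 0.18, limma adjusted p = 0.0202) as 1 of 21 initiation factors and was lower in CD151KO than in CD9KO (log2 -0.17, adjusted p = 0.00818), and Eif4g3 rose in CD151KO against wild type (log2 0.21, adjusted p = 0.0455). Of 8 genes on the elongation list 1, the methyltransferase Eef1akmt1, was higher in CD151KO than in CD9KO (log2 0.26, adjusted p = 0.0122). Of 12 nucleolar proteins, Nop58 fell in CD9KO (log2 -0.25, adjusted p = 0.0455). Among 12 genes of ribosome recycling and quality control, and among 5 paralogs of ribosomal proteins such as Rpl22l1, none passed.

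The ribosome of the mitochondrion was set beside the cytosolic one. Of its 76 tested proteins 47 lay below 0 in CD9KO against wild type, with a median log2 of -0.02. Past the threshold 2 of the 76 fell, beside 2.6% of all genes: Mrpl24 (log2 -0.11, limma adjusted p = 0.0374) and Mrps9 (-0.25, 0.0263). In CD151KO against CD9KO Mrpl24 and Mrps28 were higher and Mrpl1 was lower, with a median of 0.02. Of all genes 6.01% were higher and 4.14% lower there. The medians of the cytosolic members were -0.05 and 0.05, and the difference between these sets of genes was not tested.

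Markers of cell types that lung tissue could hold in different amounts moved in part with the same groups. None of 12 tested B and plasma cell markers passed in any comparison. Their median log2 was -0.18 in CD9KO against wild type and 0.30 in CD151KO against CD9KO. The summed signal of the 14 listed genes on the array, untested ones included, ran over 16297 to 23190.1 on the CD151KO arrays, 11974 to 20225 on the CD9KO arrays and 9486 to 19772 on the wild type arrays. None of 13 T and NK cell markers passed. Of 5 tested neutrophil markers 4 (S100a8, S100a9, Csf3r and Cxcr2) were higher in CD151KO than in CD9KO. The summed signal of the 8 listed genes on the array, untested ones included, ran over 3189.7 to 10806 on the CD151KO arrays, 1586 to 2226 on the CD9KO arrays and 2169.9 to 5492 on the wild type arrays. Of 8 markers of the cardiac muscle of pulmonary veins, Myh6 rose in CD9KO against wild type, with sums over 6557 to 11484 on the CD151KO arrays, 9119 to 12817 on the CD9KO arrays and 7182 to 8564 on the wild type arrays. Of 10 markers of cycling cells, Mcm5 was lower in both knockouts than in wild type. Bub1 was higher in CD151KO than in CD9KO (log2 0.36, limma adjusted p = 0.0217). Of the 10, 9 lay below 0 in CD9KO against wild type (median log2 -0.12). In CD151KO against CD9KO 7 lay above 0 (median 0.12), and in CD151KO against wild type 6 lay below 0 (median -0.04). Of the lung's own cell types, 1 of 7 markers of alveolar type 2 cells (Abca3) was higher in CD151KO than in CD9KO. So were 1 of 4 of club cells (Scgb3a1) and 1 of 6 of endothelium (Cldn5). In that comparison 4 of the 7, 3 of the 4 and 4 of the 6 lay above 0, and the others below. No macrophage, erythroid or alveolar type 1 marker passed. No marker was listed at 0, and the part of these cells in the ribosomal protein values was not tested.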

How the data were processed

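The deposited values are 1-colour Affymetrix intensities on a linear scale, 1 per probe set and array, and per the labels they are normalized by the authors. Per the submitters' processing notes, the tools were Affymetrix Expression Console and MAS5, listed with no role. Which method summarised and scaled the probes is not stated in these sources. Of the probe sets, 2322 held exactly equal values on at least 2 arrays. No depth applies to arrays, and their number limits the precision.

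Groups and array numbers came from the sample titles. Probe sets were named by the platform annotation: 34945 had 1 symbol, 932 several and 9160 none, 64 more were controls, and 34741 matched RefSeq by Entrez ID. The brightest probe set stood for each gene. Genes under the 40th percentile of level (log2 6.12, signal 53.4) were dropped, 5208 in all. log2(signal + 16) was fitted over all 14 arrays with limma 3.58.1 (R 4.3.3; lmFit, eBayes with trend; 11 residual degrees of freedom), two-sided, Benjamini-Hochberg over 12985 genes. Array measures were compared by exact permutation. The fit was tested on simulated data. Plots used matplotlib 3.10.9 (Python 3.11.15).

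Members and gene lists were chosen with earlier results of these data known. Values on every array are given for members that passed, for up to 6 per comparison and direction by smallest unadjusted p, for the 3 brightest, 3 dimmest and 3 most variable, and for named roles. Rpl41, Rpl10a, Rpl27 and Rpl13a were added after their values were seen. The alternatives tried were other pseudocounts (1 and 64), normalizations, filters, probe set rules and fits, the array number as a block, and leaving out arrays.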

Additional observations from a re-analysis of the deposited data

Results flagged for a closer look

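For each of the 42 genes and for the mean level of the tested members, an array was marked when its gap to the nearest array of its group was a large share of the group's range (above 0.829 of it for 4 arrays and 0.71 for 5). Of 129 groups tested 13 were marked, where chance marks about 1 in 20. Of the 13, 9 were wild type number 1 and 2 were CD151KO number 1, both apart on the first principal component. Marks on 1 array are not independent of each other.

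Wild type number 1 was the highest array for Rpl27 at 7096 against 6349 to 6405 on the other wild type arrays, Rpl4 at 12926 against 10966 to 11288, Rpl41 at 16369 against 14276 to 14533, and Rplp2 at 15296 against 14044 to 14144. The same array was the highest for Rps25 at 409 against 330.4 to 343, Rps26 at 8852 against 8070.3 to 8139.7, and Rps9 at 10040.5 against 9409 to 9462. It was the lowest for Rpl27a at 288 against 319.7 to 325, and Rps28 at 13221 against 14698 to 14979. Without wild type number 1, Rps26 was no longer past the threshold in CD9KO against wild type.

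CD151KO number 1 was the lowest array of its group for Rpl12, at 131 against 159 to 166, and the highest for Rps3, at 11744 against 11228 to 11336. CD151KO number 4 was the highest for Rps29, at 19386 against 18757 to 18931. CD9KO number 1 was the lowest for Rps16, at 7.85 against 10.3 to 10.96, below the signal filter.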

How the results depend on the processing

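Over 27 alternatives, 14 of which left out 1 array each, no member passed limma's test in CD151KO against wild type, and at most 1 had an unadjusted p under 0.05. Of all genes 0.185% to 2.58% passed there, and 9.18% to 16.7% had an unadjusted p under 0.05. Rpl11 and Rps26 passed in CD151KO against CD9KO under all 27, while Rps14 was lost under 6 and Rps18 under 9. In CD9KO against wild type Rpl11 was lost under 8, Rps26 under 14 and Rps18 under 10. The members passing there (3) became 1 with arrays centred on their median, 1 with no filter, 6 probe sets with every probe set tested, 0 with only the compared groups in the fit, 0 with no trend, 6 with the array number as a replicate block, and 0 without both number 1 arrays, and they ran over 0 to 4 with single arrays left out. They were 0 without wild type number 1, CD9KO number 4 or CD9KO number 5, and 1 without CD9KO number 3, wild type number 3 or wild type number 5, and 35 or 36 members lay below 0 whichever single array was left out. Of all genes 4.86% passed with arrays centred, 3.07% with no filter and 3.97% with only the compared groups. With no trend 4.87% passed, with the block 12.3%, and without both number 1 arrays 3.11%. Of all probe sets 6.78% passed, and with single arrays left out 1.22% to 6.66% of all genes. In CD151KO against CD9KO the 4 became 2 with no filter, 8 probe sets with every probe set tested, 2 with no trend, and 2 to 8 with single arrays left out (2 without CD151KO number 1 or 3 or CD9KO number 3 or 4, and 8 without wild type number 1). Of all genes 6.02% passed there with no filter and 9.48% with no trend. With single arrays left out 5.26% to 14.9% of all genes passed, the highest without wild type number 1. Of all probe sets 7.7% passed. The members' median ran over -0.0042 to 0.019 in CD151KO against wild type, -0.06 to -0.03 in CD9KO against wild type and 0.04 to 0.06 in CD151KO against CD9KO with single arrays left out.

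Over all genes, the 101 that passed in CD151KO against wild type became 39 with only the compared groups, 335 with array weights, 45 without both number 1 arrays and 24 to 101 with single arrays left out. The 709 in CD9KO against wild type became 1555 with every probe set, 1091 with array weights, 1594 with the replicate block, 404 without both number 1 arrays and 158 to 865 with single arrays left out, and the 1317 in CD151KO against CD9KO ran over 683 to 1938. The cause was not tested. Of the gene results followed, those past the threshold or with an unadjusted p under 0.05, Rpl41 alone reversed, to a log2 of -0.00071 in CD151KO against CD9KO (limma adjusted p = 0.993) with the mean of its probe sets. The labels do not say what the array numbers mean, and whether they pair the samples was not settled. Deviations of same-numbered arrays correlated at -0.139 to 0.595, and not above 0.1 for every pair. The highest was between the number 1 arrays of CD151KO and wild type. Same-numbered arrays were not compared with different-numbered ones. The block gave 6 members and 1825 of all genes (14.1%) in CD151KO against CD9KO. Of the 27 followed results that had not passed, 9 passed under at least 1 alternative. The same count was not made over all genes.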
